A study of Ictidomys tridecemlineatus with 5 samples.

Results

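The transcripts described here encode proteins of the lysosome and of its acidification: the cathepsins, the V-type proton ATPase, the lysosome-associated membrane glycoproteins and the proteins whose Swiss-Prot description begins with the word lysosomal. They were chosen by the opening words of that description in the deposited hit tables and joined across species by the entry name that precedes the species code. This gave 51 names out of 15938 in the series, 49 of them in the eye table, 45 in the retina table and 43 in both. By role they are 11 cathepsins, 24 pump proteins, 4 membrane glycoproteins and 12 proteins described as lysosomal. RNA came from wild-type thirteen-lined ground squirrels (Ictidomys tridecemlineatus, a day-active rodent), with 2 libraries from whole eye and 3 from isolated retina, each preparation a pool of 4 animals. The labels name no age, sex or season. Whole eye contains the retina together with lens, cornea, uvea, pigment epithelium, sclera and whatever muscle was left attached. Libraries of 1 tissue were merged into a single value per assembled transcript, so no value below could be checked against replicates, and no p-value was computed.

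Lysosomes are acidic compartments in which cells break down proteins, lipids and sugars delivered by endocytosis, phagocytosis and autophagy. The V-type proton ATPase makes them acidic: its cytosolic V1 sector splits ATP and its membrane V0 sector carries protons across. Cathepsins are proteases, most with a cysteine and some with an aspartate at the active site, that work best at this low pH. In the eye, the pigment epithelium digests shed photoreceptor outer segments in its lysosomes every day, and neurons use a closely related pump to fill synaptic vesicles with transmitter.

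A level below is the RPKM (reads per kilobase of transcript, scaled to sequencing depth) of the highest transcript under a name, and a difference is log2(eye RPKM + 1) minus log2(retina RPKM + 1), which understates the change of low genes. Most marker levels went with the tissue names. The 6 retinal neuron markers summed to 3005 RPKM in eye against 6103 in retina, and all 6 were lower in eye. The lens and ocular surface markers CRYAA, CRBB2, K1C12, K1C15 and K2C5 lay between 523 and 2743 RPKM in eye and between 0.299 and 1.29 in retina. RPE65 of the pigment epithelium stood at 238 RPKM in eye against 17.5 in retina, but RLBP1 (347 and 323), which Muller glia also make, and BEST1 (15.8 and 16.6) of the same list were nearly level. In whole tissue, fewer cells of a type and less RNA per cell cannot be told apart.

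Cathepsins and several other lysosomal proteins stood higher in whole eye than in retina, whereas the proton pump stood at nearly the same level in both and slightly lower in eye. Of the 43 names in both tables, 11 exceeded their retina level at least 2-fold in eye and 0 did so in retina. Among all 13383 proteins compared, 11.8% passed 2-fold towards eye and 3.6% towards retina. The members' 25.6% in eye was above that background. With transcripts summed per name it was 20.9% (9 of 43) against 16.8% of all proteins, and 14.0% of the members (6 of 43) against 19.3% of all proteins then passed 2-fold towards retina, so little of the excess was left. The 11 came unevenly from the roles. They held 5 of 8 cathepsins, 5 of 12 proteins described as lysosomal, 1 of 20 pump proteins and 0 of 3 membrane glycoproteins. The median difference was 1.41 for cathepsins, 0.65 for the proteins described as lysosomal, 0.63 for the membrane glycoproteins and -0.21 for the pump, against -0.0035 over all proteins. Of the 20 pump proteins 7 stood higher in eye and 13 (65.0%) lower, against 50.3% of all proteins that stood lower. With transcripts summed 11 (55.0%) stood lower, against 53.2% of all proteins, and the pump median was -0.41 against -0.073. The gap between cathepsins and pump has no test, since each protein has 1 value per tissue. Scaling both tables to an equal total moved the median of all proteins to -0.29. The cathepsin median was then 1.16, the pump median -0.49 and the median over the 43 members -0.11 in place of 0.21. Such a scaling shifts all proteins by 1 factor, so distances from the median of all proteins hardly change by construction. That scaling also moved the share of eye among all 2-fold calls from 76.6% to 52.0%.

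**Figure D1:**
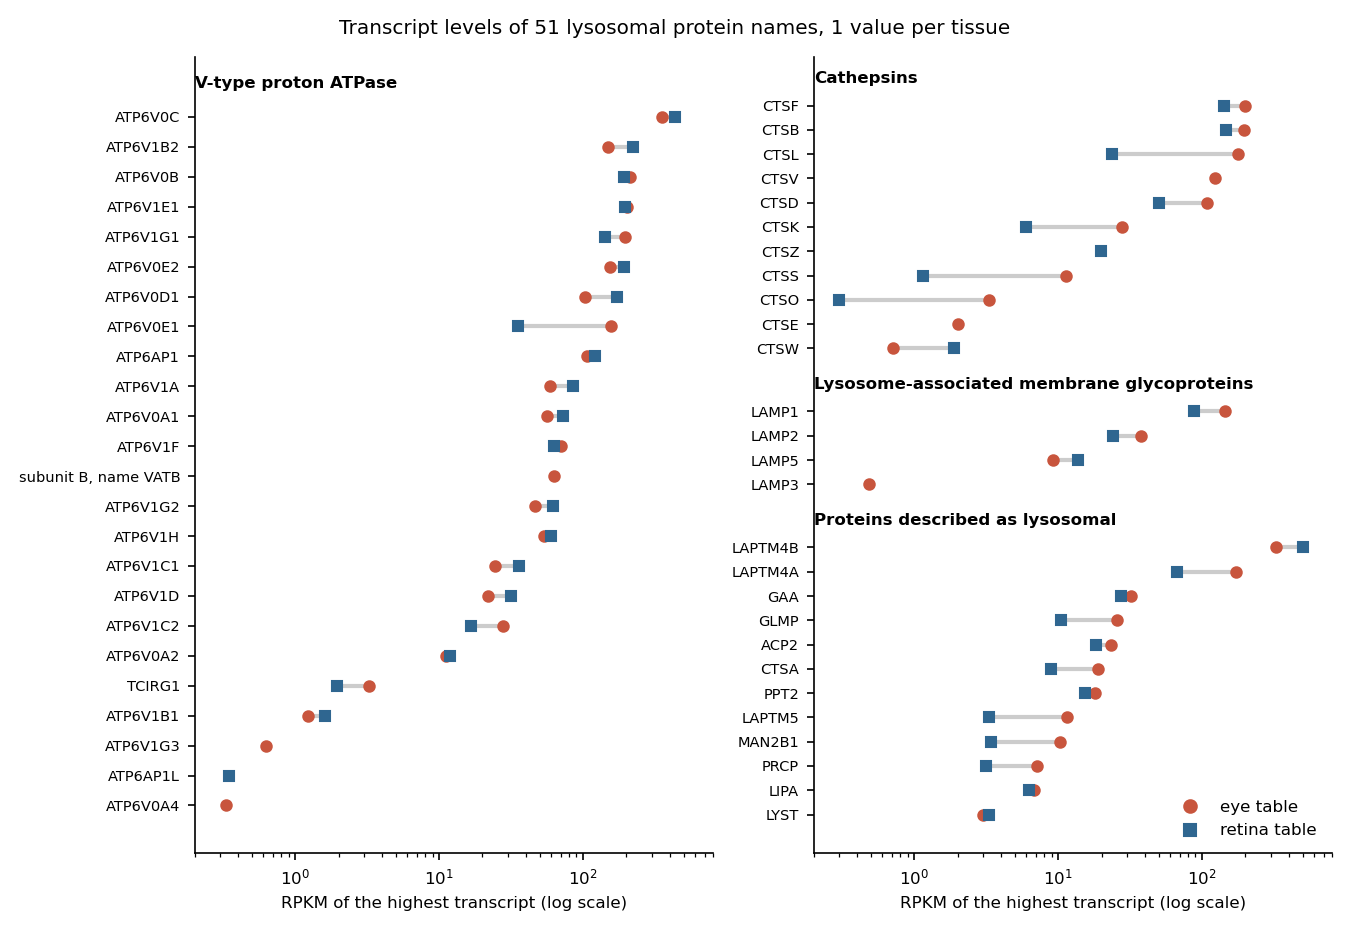
RPKM of the highest transcript (log scale) of each of the 51 names in the eye table (circles) and the retina table (squares), by role; a name with 1 symbol is in that table only. Circles of most cathepsins lie to the right of the squares, by 7.50 times for CTSL, while circles and squares of most pump proteins lie close together, with ATP6V0E1 as the wide exception.

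The cysteine cathepsins spanned from among the most abundant proteins of the eye to barely detected ones. Cathepsin L, a broad endopeptidase, stood at 178 RPKM in eye against 23.7 in retina, which is 2.85 on the log2 scale with a 95% counting interval of 2.83 to 2.88. It was the widest difference of any member on this scale. By the plain ratio of RPKM, cathepsin O (11.1 times) and cathepsin S (9.87 times) exceeded cathepsin L (7.50 times). Other members were also widest with pseudocount 0.1, with sums, by the longest transcript and by the best-matching transcript. The eye value came from a transcript of 538 bases, and the transcript of 3154 bases stood at 74.8 RPKM, which brings the difference to 1.62. Cathepsin S, which trims the invariant chain in antigen-presenting cells, stood at 11.3 RPKM in eye against 1.15 in retina, which is 2.52 on the log2 scale. Cathepsin K, the collagen-degrading protease best known from osteoclasts and also made by fibroblasts, stood at 27.7 and 5.93 RPKM, a difference of 2.05. In retina cathepsin K ranked at percentile 42.0 of all protein names and cathepsin S at 13.4. Cathepsin O, a little studied relative, was rarer still, at 3.33 RPKM in eye against 0.298 in retina, where its value rested on 68 reads.

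Cathepsins B and F were abundant in both tissues and differed little. Cathepsin B, an endopeptidase that also trims C-terminal dipeptides, stood at 194 RPKM in eye against 147 in retina, which is 0.40 on the log2 scale. Cathepsin F stood at 197 and 142 RPKM, a difference of 0.47. Both ranked above percentile 96 of all names in either tissue, so that cathepsin F, in retina, was 5.99 times as high as cathepsin L on this scale per length. With transcripts summed per name the 2 differences became -0.15 and -0.81, so their direction rests on the transcript chosen. Cathepsin W, a protease of cytotoxic lymphocytes, was the only cathepsin in both tables that stood lower in eye, at 0.713 against 1.87 RPKM, close to the bottom of the measured range. The retina transcript matched weakly, over 59 residues, and the best-matching transcripts, at 0.664 in eye and 0.366 in retina, ran the other way.

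The aspartic protease cathepsin D, a main lysosomal endopeptidase and a major digester of rhodopsin in pigment epithelium, stood at 107 RPKM in eye against 50.2 in retina, which is 1.08 on the log2 scale. Its direction also depended on the transcript. The eye table held 3 transcripts of 1962, 2018 and 2038 bases aligned over 391 residues, at 107, 107 and 13.8 RPKM. The longest and best-matching of them was the one at 13.8 RPKM, which gives differences of -1.47 by the longest transcript and -1.69 by the best match. Cathepsin E, an aspartic protease of gastric and immune cells, was in the eye table only, at 2.01 RPKM. Cathepsin V, listed as cathepsin L2, was also in the eye table only, at 122 RPKM on a transcript of 573 bases. It is a close relative of cathepsin L, and reads or fragments of the pair may be shared. Cathepsin Z, a carboxypeptidase, was listed for retina alone, at 19.7 RPKM.

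**Figure D2:**
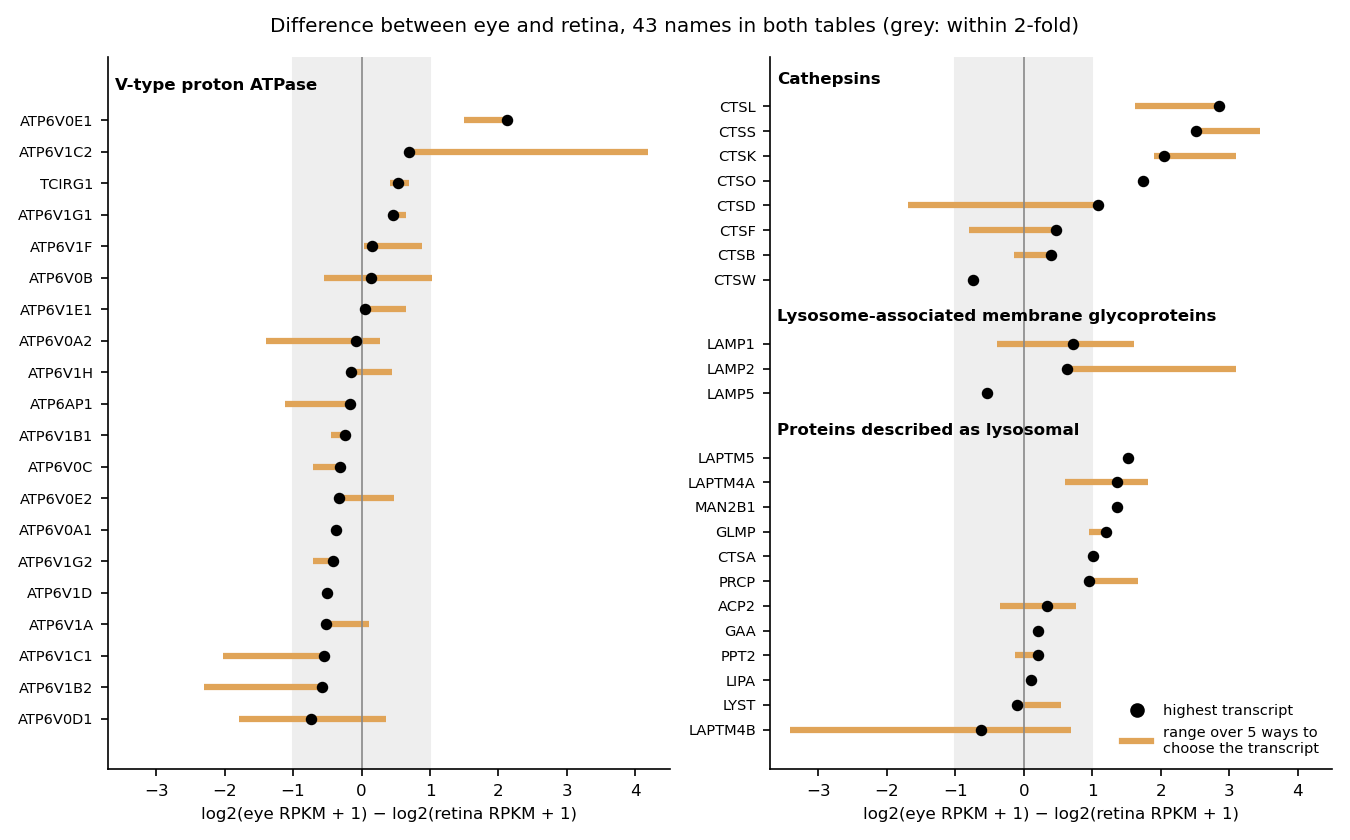
Difference between eye and retina (log2 scale, positive for higher in eye) of the 43 names in both tables; points are the highest transcripts, bars the range over 5 ways to choose the transcript (highest, summed, longest, best-matching, 200 bases or more), and the grey band marks less than 2-fold. CTSL, CTSS, CTSK and ATP6V0E1 stay to the right of the band over the whole bar, whereas the bar of CTSD reaches from 1.08 to -1.69. CTSO, LAPTM5, MAN2B1 and CTSA also lie to the right, but with 1 transcript in each table their values could not vary.

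The V1 sector, which splits ATP, differed by less than 2-fold in all 11 names found in both tables, from -0.58 to 0.70. Its catalytic subunit A, ATP6V1A, stood at 58.8 RPKM in eye against 84.6 in retina, which is -0.52 on the log2 scale. Its partner in the ATP-binding ring, subunit B2 (ATP6V1B2), stood at 148 and 222 RPKM, a difference of -0.58. Subunits of the rotor and of the regulatory stalk were likewise lower in eye: D (ATP6V1D) at 21.7 and 31.3 RPKM, and C1 (ATP6V1C1), which detaches when the pump is switched off, at 24.3 and 36.1. These 4 names differed by between -0.51 and -0.58. Subunit H (ATP6V1H), which blocks ATP splitting in the free V1 sector, stood at 53.4 and 59.8 RPKM. The stalk subunit E1 (ATP6V1E1) was nearly level at 203 and 197 RPKM, and the rotor subunit F (ATP6V1F) at 70.1 and 62.9. After scaling to an equal total both lay below 0, at -0.28 and -0.17. Their values with transcripts summed were 0.65 and 0.88, and that of subunit H was 0.44. With transcripts summed, subunit B2 differed by -2.30 and subunit C1 by -2.02, since the retina table held 5 and 3 transcripts for them against a single one each in the eye table, and subunit A differed by 0.11.

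By the highest transcripts, the V0 sector, which carries the protons, had the highest member of the pump and its only wide difference. The proteolipid subunit c (ATP6V0C), which forms most of the proton-binding ring, stood at 351 RPKM in eye against 437 in retina, which is -0.31 on the log2 scale. The related proteolipid ATP6V0B stood at 213 and 194 RPKM, and lay at -0.20 after scaling to an equal total. Its difference was 1.03 by the longest transcript and -0.55 with transcripts summed. Subunit d1 (ATP6V0D1), which links the ring to the rotor, stood at 102 and 172 RPKM, a difference of -0.74 and the lowest of the pump. It was 0.36 by the longest transcript and -1.78 by sums. The small membrane subunit e1 (ATP6V0E1) went the other way, at 156 RPKM in eye against 35.2 in retina, which is 2.12 on the log2 scale (2.08 to 2.16), and stayed between 1.50 and 2.15 over the 14 alternatives. The accessory protein ATP6AP1, needed to assemble the pump, stood at 107 and 120 RPKM, and at -1.12 by sums. Its relative ATP6AP1L was listed for retina alone, at 0.348 RPKM from 41 reads.

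Several pump subunits exist as isoforms made by separate genes, some broad and some typical of neurons or of acid-secreting epithelia, and the mixtures of subunits e and C differed between the tissues. Of the RPKM summed over e1 and e2, the broadly expressed e1 made up 50.3% in eye and 15.4% in retina. Over the 5 ways to choose the transcript its share ran from 35.2% to 50.3% in eye and from 13.0% to 24.9% in retina, ranges that do not overlap. Isoform e2 (ATP6V0E2), common in brain, stood at 154 RPKM in eye against 194 in retina, a difference of -0.33, or 0.48 with transcripts summed. For subunit G, the broad G1 (ATP6V1G1) stood at 196 and 143 RPKM and the neuronal G2 (ATP6V1G2) at 46.5 and 62.1, so that G2 made up 19.1% in eye and 30.4% in retina. These shares overlapped over the transcript choices, at 13.7% to 37.1% in eye and 26.8% to 50.9% in retina.

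For subunit a, which anchors the stalk and directs the pump to its compartment, the neuronal a1 (ATP6V0A1) led in both tissues, at 55.9 RPKM in eye against 72.9 in retina. That was 79.2% and 84.1% of the subunit, with ranges of 76.1% to 79.6% in eye and 68.0% to 86.9% in retina over the transcript choices, the retina share being the lower one with sums. Isoform a2 (ATP6V0A2), of the Golgi and endosomes, stood at 11.1 and 11.8 RPKM (-1.40 on the log2 scale with sums), and TCIRG1, the a3 isoform of osteoclasts and secretory lysosomes, at 3.24 and 1.93. The a4 isoform of acid-secreting epithelia (ATP6V0A4) was in the eye table only, at 0.327 RPKM from 14 reads on a transcript of 162 bases. The other isoforms of such epithelia were also rare: B1 (ATP6V1B1) stood at 1.22 and 1.62 RPKM, or 0.814% and 0.725% of B1 and B2 together, and G3 (ATP6V1G3) was in the eye table only at 0.629. Isoform C2 (ATP6V1C2) was the outlier among them, with 27.6 RPKM in eye against 16.6 in retina, which made it 53.1% and 31.5% of subunit C. The eye table held 1 transcript each for C1 and C2, so its share there could not vary with the transcript choice. In retina the share ran from 1.54% to 32.3% over the choices. The retina value is uncertain, since that transcript aligned over 106 residues only. A retina transcript aligned over 352 residues stood at 0.565 RPKM, and by it the difference was 4.19 instead of 0.70. A further name for subunit B, VATB, matched on a chicken entry, was in the eye table only at 62.8 RPKM on a transcript of 172 bases and cannot be told apart from B2 by its name.

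**Figure D3:**
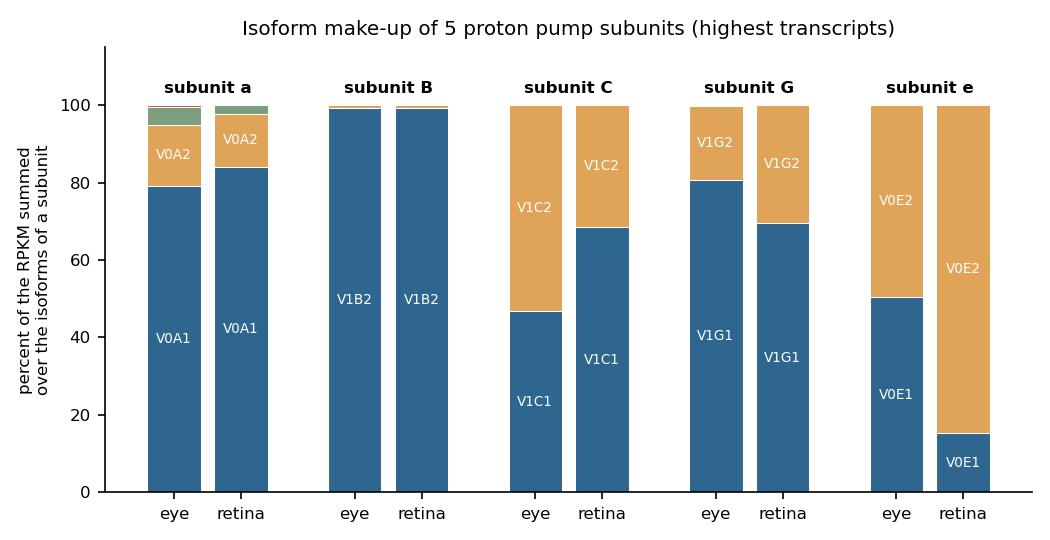
Percent of the RPKM summed over the isoforms of a pump subunit, for subunits a, B, C, G and e in the eye and retina tables (highest transcripts); for subunit a, green is TCIRG1 and red ATP6V0A4, and the thin upper band of subunit B is ATP6V1B1. The e1 share is 50.3% in eye and 15.4% in retina, while B2 makes up over 99% of subunit B in both.

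The lysosome-associated membrane glycoproteins line the inner face of the lysosomal membrane. LAMP1 stood at 145 RPKM in eye against 87.5 in retina, which is 0.72 on the log2 scale. LAMP2, which also serves as a receptor for chaperone-mediated autophagy, stood at 37.8 and 24.0 RPKM, a difference of 0.63. Both were higher in eye, by less than 2-fold. LAMP1 differed by -0.39 with transcripts summed and 1.60 by the longest transcript, and LAMP2 by 3.10 by the longest transcript, which in retina aligned over 47 residues only. LAMP5, a relative found mainly in neurons, stood lower in eye at 9.17 against 13.8 RPKM, a difference of -0.54. LAMP3, a relative of dendritic and lung epithelial cells, was in the eye table only at 0.482 RPKM from 26 reads.

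By the highest transcripts and without further scaling, all 7 enzymes described as lysosomal stood higher in eye, and 2 of them at least 2-fold. Among all proteins 49.7% stood higher in eye and 11.8% at least 2-fold. The alpha-mannosidase MAN2B1, which trims glycoprotein sugars, stood at 10.3 RPKM in eye against 3.42 in retina, which is 1.36 on the log2 scale. The protective protein CTSA, a serine carboxypeptidase that stabilises sialidase and beta-galactosidase, stood at 18.9 and 8.89 RPKM, a difference of 1.01 that was 0.70 after scaling to an equal total. The carboxypeptidase PRCP lay just inside the 2-fold mark, at 7.09 and 3.17 RPKM and a difference of 0.96. The other enzymes were close to level. The glycogen-degrading alpha-glucosidase GAA stood at 31.9 and 27.4 RPKM, the acid phosphatase ACP2 at 23.4 and 18.3, the thioesterase PPT2 at 17.9 and 15.4, and the acid lipase LIPA at 6.82 and 6.29. Of these, GAA, PPT2 and LIPA lay below 0 after scaling to an equal total, at -0.11, -0.11 and -0.19, and ACP2 and PPT2 lay at -0.35 and -0.13 with transcripts summed.

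Membrane proteins described as lysosomal divided by gene. LAPTM4A, a small protein with several membrane spans, stood at 173 RPKM in eye against 66.6 in retina, which is 1.36 on the log2 scale, or 0.60 with transcripts summed. LAPTM5, its relative in blood and immune cells, stood at 11.5 and 3.33 RPKM, a difference of 1.53. GLMP, a glycosylated lysosomal membrane protein listed under its older name NCU-G1, stood at 25.4 and 10.5 RPKM, a difference of 1.20, or 0.89 after scaling to an equal total. All 3 were therefore higher in eye. LAPTM4B was the highest member of all in retina, at 506 RPKM against 327 in eye, but its retina value came from a transcript of 139 bases. Under this name, 52 transcripts were listed for retina and 9 for eye, most of them under 200 bases. Among those of 200 bases or more the levels were 327 RPKM in eye against 441 in retina, which is -0.43 on the log2 scale, while the longest transcripts, of 2911 and 5111 bases, stood at 213 and 202. The difference was 0.70 by the best-matching transcripts and -3.41 by sums. Whether LAPTM4B differs between the tissues cannot be read from these values. The trafficking regulator LYST, whose loss enlarges lysosomes in Chediak-Higashi syndrome, stood at 3.00 and 3.29 RPKM.

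Other genes of the lysosome were read from lists fixed beside the members. Of 31 further hydrolases and their activators, 29 stood higher in eye. A 2-fold mark was passed by 7 towards eye and by 0 towards retina, and the median difference was 0.58. The 7 are 22.6% of the list, against 11.8% of all proteins. After scaling to an equal total 23 stood higher (74.2%, against 31.4% of all proteins), 4 of them (12.9%, against 8.51%) at least 2-fold. With transcripts summed 21 stood higher (67.7%, against 46.8%). The highest was prosaposin (SAP), the precursor of the sphingolipid activators, at 328 RPKM in eye against 249 in retina. Acid sphingomyelinase (ASM) stood at 92.6 and 24.0 RPKM, alpha-N-acetylglucosaminidase (ANAG) at 105 and 8.04, and sialidase 1 (NEUR1) stood lower in eye at 34.2 against 53.6. The widest difference of this list, singled out after its values were seen, was that of the tartrate-resistant phosphatase PPA5, an enzyme of osteoclasts and macrophages, at 23.3 and 0.531 RPKM. Cystatins block cysteine cathepsins. Cystatin C (CYTC), secreted in large amounts by pigment epithelium, stood at 3021 RPKM in eye against 1489 in retina, cystatin B (CYTB) at 140 and 112, and cystatin M (CYTM) at 10.03 and 0.604. Of these 3, cystatin B lay at -0.0072 on the log2 scale after scaling to an equal total. The levels of cystatin C came from short transcripts, of 278 bases in eye and 143 in retina, and its difference of 1.02 on the log2 scale was 0.69 after scaling to an equal total.

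Lysosomal membrane and delivery genes were closer to level. Of 12 other lysosomal membrane and cholesterol transfer proteins 8 stood higher in eye, with a median of 0.15. The tetraspanin CD63 stood at 93.3 RPKM in eye against 33.6 in retina and the cholesterol carrier NPC2 at 53.9 and 14.5, but its partner NPC1 at 17.6 and 29.0 and the calcium channel MCLN1 at 21.1 and 26.3. Of 6 sorting receptors and mannose-6-phosphate enzymes 3 stood higher, with a median of -0.066. Of 8 regulators found 5 stood higher. MITF, the pigment cell relative of the lysosomal regulator TFEB, stood at 8.99 and 2.26 RPKM, TFEB itself at 6.99 and 4.17, and TFE3 at 25.0 and 21.8. Of the 3 that stood lower, RPTOR was the furthest, at 10.2 and 21.3 RPKM and a difference of -0.997. After scaling to an equal total 4 of the 12, 1 of the 6 and 2 of the 8 stood higher in eye, against 31.4% of all proteins. Their medians were then -0.13, -0.36 and -0.13, against -0.29 over all proteins, and TFE3 lay at -0.13. All 6 pump assembly genes found were lower in eye, from -0.53 to -0.15, a range inside that of the pump subunits. Among all proteins 50.3% stood lower in eye, 68.6% after scaling to an equal total and 53.2% with transcripts summed. With transcripts summed, 1 of the 6 stood higher in eye and the range was -1.24 to 0.40. They included the renin receptor RENR, a second accessory protein of the pump, at 94.0 and 104 RPKM.

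**Figure D4:**
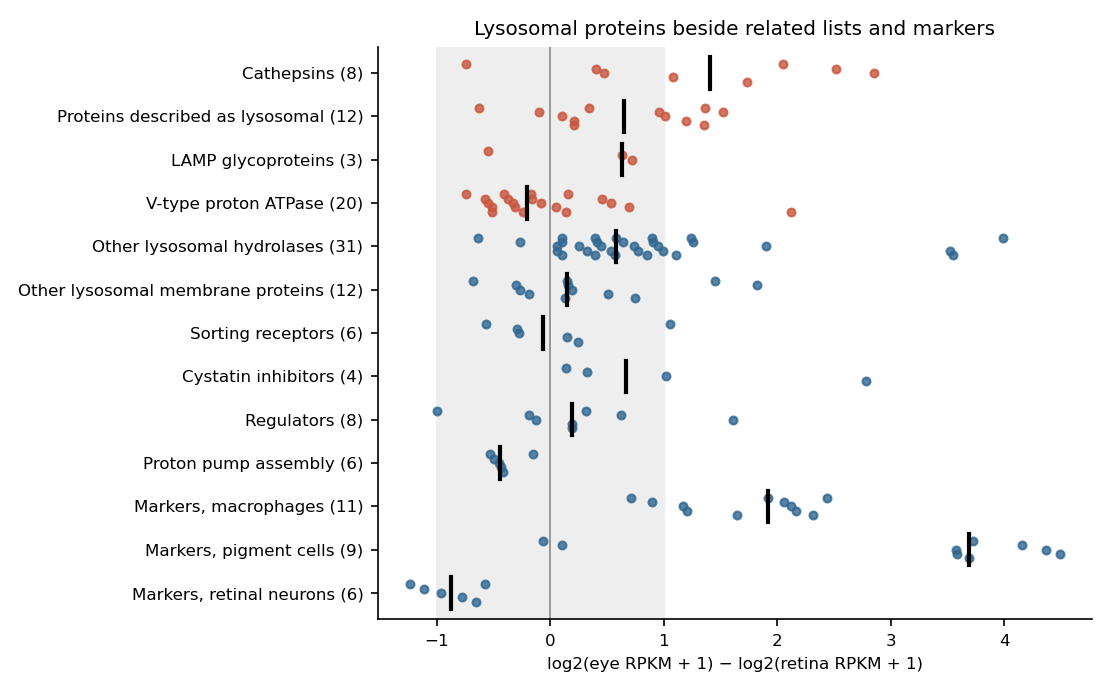
Difference between eye and retina (log2 scale) of each protein in the 4 role groups (red) and in related lists and markers (blue), with the number of proteins in brackets; bars are list medians and the grey band marks less than 2-fold. The medians of the role groups run from 1.41 for cathepsins to -0.21 for the pump, those of the marker lists from 3.70 for pigment cells to -0.87 for retinal neurons, and the 6 pump assembly genes sit between -0.53 and -0.15.

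Markers of macrophages, pigment cells and connective tissue stood higher in eye, as did those of lens, ocular surface and skeletal muscle, whose medians of 10.6, 9.25 and 7.03 were wider. Macrophage and microglia markers summed to 167 RPKM in eye (11 of 12 found) and 40.2 in retina (12 of 12), and all 11 in both tables stood higher in eye, with a median of 1.92. CD68, itself a lysosomal glycoprotein, stood at 10.7 and 1.81 RPKM, and CSF1R was listed for retina alone, at 5.74. Pigment cell markers summed to 1605 and 427 RPKM, with 8 of 9 higher in eye and a median of 3.70, and the 4 connective tissue markers summed to 627 and 94.7 RPKM, all higher in eye. Every marker of these 3 lists has a level above 0 in both tissues, except that CSF1R is not listed in the eye table. Its level in eye is therefore unknown. The part of these cells in the differences of cathepsins S, K, L and LAPTM5 was not tested. Retinal neuron markers had a median of -0.87, all 6 lower in eye, beside a pump median of -0.21 with 7 proteins higher and 13 lower. Their part in the pump values was not tested either.

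The order of levels was largely shared by the tissues. Across the 43 names the rank correlation of eye and retina RPKM was 0.90, and across the 20 pump proteins 0.87, as a description over genes that share 1 library pool per tissue. ATP6V0C led the pump in both. In retina, ATP6V1B2, ATP6V1E1, ATP6V0B and ATP6V0E2 followed between 194 and 222 RPKM, and in eye ATP6V0B, ATP6V1E1 and ATP6V1G1 between 196 and 213. Names with such small gaps cannot be ordered without replicates. The pump proteins had a median percentile of 91.7 in eye and 92.8 in retina among all protein names, against 88.8 and 74.9 for the cathepsins and 73.3 and 55.7 for the proteins described as lysosomal. For the membrane glycoproteins the medians were 70.6 over 4 names in eye and 79.4 over 3 in retina, where LAMP3 is not listed. These 2 medians cover unlike sets and give no direction. LAMP1 ranked at 96.6 in eye and 94.9 in retina, LAMP2 at 86.9 and 79.4, and LAMP5 at 54.2 and 66.1. The pump and cathepsin medians also cover unlike sets, of 23 and 21 names for the pump and 10 and 9 for the cathepsins. Over the 20 pump proteins in both tables the median level was 64.4 RPKM in eye against 67.9 in retina. Over the 8 cathepsins in both it was 67.6 against 14.8. The proteins described as lysosomal, the same 12 names in both tables, had the lower median percentile in retina.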

How the data were processed

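The file headers speak only of an expression value. The deposited numbers behave as RPKM: multiplied by transcript length and divided by the smallest such product of their table, 100% came within 0.01 of whole reads. A level of 1 RPKM over 1000 bases thus stands for 264 reads in the eye table and 356 in the retina table. Recovered reads summed to 19.2 and 10.5 times the totals behind that scaling, so reads may be counted on several transcripts. Bowtie is named without a version in the submitters' processing notes; the assembler, the counting and the search program are not given in the sources used. Per the file headers, the hit tables give similarity in percent and an alignment score. Depth per library is unknown, as each table merges its libraries.

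Transcripts were joined by Swiss-Prot name (Python 3.11.15, pandas 2.3.3), taking the highest transcript, at 1 RPKM or more in either tissue for comparison. Quotation marks around descriptions were removed, which adds 2 names, VATB1 and VATB2. Counting intervals (95%, Poisson) had a median half-width of 0.025 and at most 0.15 over the 43 members, and cover counting error only. The rule named members at 20 RPKM or more, at a 2-fold difference, highest in a role or among pump isoforms, and up to 4 per further list by level; the others are named for their role. Members and lists were chosen with earlier results of these data known. The functions were tested on simulated data. The symbols of 48 of the 51 members occur in RefSeq (assembly mIctTri1.hap1), from which only names were taken. No sequences are shown. Alternatives were summed, longest, best-matching and 200-base transcripts, pseudocounts 0.1 and 5, filters, 2 scalings, strict E-values, mammalian hits, joined names and quotation marks kept; the last 2 were chosen after seeing the data.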

Additional observations from a re-analysis of the deposited data

How the results depend on the processing

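No paired analysis was possible because the tables merge the libraries of a tissue, so no library could be left out or blocked either. Of the 11 members at least 2-fold higher in eye, 4 (CTSK, CTSL, CTSS and ATP6V0E1) were so in all 14 alternatives and 10 kept their sign in all that gave a value; CTSD turned to -1.47 by the longest and -1.69 by the best-matching transcript. Over all 43 members, 25 kept their sign in all alternatives that gave a value. Among them is CTSW, whose best-matching transcripts ran the other way but lay below the filter of 1 RPKM. Joining names could not change a highest level, since the joined names were lower. The 11 became 6 with pseudocount 5. Members at least 2-fold higher in retina numbered 6 with sums (14.0%, against 19.3% of all proteins; 5 were pump proteins, 25.0% of the pump), 1 with longest (CTSD) and 1 with best-matching transcripts (CTSD), 1 with pseudocount 0.1 (CTSW) and 1 with an equal total (ATP6V0D1, 1 pump protein), against 0. Over all proteins sums put 46.5% of 2-fold calls in eye. Pump proteins at least 2-fold higher in eye numbered 2 with longest and 2 with best-matching transcripts, against 1. Other hydrolases at least 2-fold higher in eye numbered 4 with an equal total, against 7. The member median was 0.28 with longest, 0.24 with best-matching, 0.17 with pseudocount 5 and -0.11 with an equal total. The cathepsin median was 0.99 with sums, 1.04 with longest, 1.62 with best-matching, 1.65 with pseudocount 0.1, 0.84 with pseudocount 5, 1.57 with the filter at 10 RPKM, 1.16 with an equal total and 1.74 with strict E-values. The pump median was -0.41 with sums, -0.17 with longest, -0.24 with pseudocount 0.1, -0.16 with pseudocount 5, -0.24 with the filter at 10 RPKM, -0.49 with an equal total and -0.17 with quotation marks kept. The median of the other hydrolases was 0.35 with sums, 0.71 with best-matching, 0.69 with pseudocount 0.1, 0.47 with pseudocount 5, 0.64 with the filter, 0.31 with an equal total and 0.61 with strict E-values. The cause of these shifts was not tested.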

Other observations

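Other names carry lysosome or cathepsin within the description but not at its start, and were looked at after the members' values were seen. Of these 9, 7 stood higher in eye (77.8%, against 49.7% of all proteins) and 2 at least 2-fold (22.2%, against 11.8%). After scaling to an equal total 5 stood higher (55.6%, against 31.4% of all proteins), with BL1S2 at -0.051 and the cobalamin transporter LMBD1 at -0.043. Cathepsin H (CATH, listed as pro-cathepsin H), an aminopeptidase, stood at 20.1 RPKM in eye against 5.25 in retina, which is 1.75 on the log2 scale. The thiol reductase GILT, which unfolds antigens in the lysosomes of antigen-presenting cells, stood at 14.6 and 2.01 RPKM, a difference of 2.37. The 3 subunits of the complex that builds melanosomes and other lysosome-related organelles were nearer to level, with BL1S1 at 97.9 and 71.1 RPKM, BL1S2 at 46.7 and 38.4 and BL1S3 at 9.23 and 10.5. The lysosome membrane protein SCRB2, a receptor that delivers beta-glucocerebrosidase, stood at 25.2 and 17.4 RPKM, and the non-lysosomal glucosylceramidase GBA2 stood lower in eye at 27.0 against 35.6.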
